A study of Mus musculus with 6 samples.

Results

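The enzymes described here conjugate, oxidise or reduce reactive compounds in the gut epithelium: glutathione S-transferases (Gst), UDP-glucuronosyltransferases (Ugt), sulfotransferases (Sult), aldehyde dehydrogenases (Aldh) and aldo-keto reductases (Akr). They were taken from the array by gene symbol, as all genes of these 5 families with a probe set annotated to that gene alone, leaving out Sult1c2. That gave 78 genes of the 18193 with a probe set of their own, of which 20 were Gst, 11 Ugt, 12 Sult, 20 Aldh and 15 Akr genes. Where a gene had several probe sets, the one with the highest mean over all 6 arrays stood for it.

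Epithelium from the crypts of the jejunum was profiled in 3 Sox9 deficient mice (KO 1 to KO 3) and 3 wild type littermate controls (WT 1 to WT 3), all C57BL/6 and 3 months old, with 1 single-colour array a mouse. The series asks which genes depend on Sox9, a transcription factor of the crypt base. The labels used here do not say how or in which cells Sox9 was deleted, nor which mice were littermates of each other. Values are log2 GCRMA intensities, and 49 of the 78 genes had a mean of at least 4, the level above which probe sets were tested.

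Glutathione S-transferases join glutathione to electrophiles, UDP-glucuronosyltransferases add glucuronic acid in the endoplasmic reticulum, and sulfotransferases add sulfate in the cytosol, so that the products can be pumped out of the cell. Aldehyde dehydrogenases oxidise aldehydes to acids, and aldo-keto reductases reduce aldehydes and ketones with NADPH. The small intestine is known to express many of these enzymes, as the first tissue to meet absorbed plant compounds and drugs, and several of their genes are induced through the transcription factor Nrf2, which binds antioxidant response elements.

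The arrays showed epithelium, and they differed in ways other than genotype. All 11 crypt epithelium markers were above the test level, while all 4 endothelial markers and 7 of 8 fibroblast and smooth muscle markers were below it, with Vim as the exception. All 10 villus enterocyte markers on the array and 7 of 8 leukocyte markers were above that level too. The markers thus do not show crypt epithelium alone. Of 8 secretory cell markers 5 lay lower on all KO arrays than on any WT array, as did 4.03% of all probe sets. Among them was the Paneth cell gene Mmp7 (difference -4.71, limma adjusted p = 0.156), while Muc2 (0.04), Tff3 (-0.09) and Chga (-0.36) overlapped. The summed level of the 8 (log2 of the summed intensities) was 17.23 to 17.57 in KO and 17.76 to 17.94 in WT. Summed levels were 18.08 to 18.38 in KO and 17.79 to 18.27 in WT for 10 villus enterocyte markers, and 13.52 to 14.58 in KO and 15.06 to 15.24 in WT for 8 leukocyte markers. Of the 10 villus markers 7 had higher means in KO and 3 lower, with a median difference of 0.15. Alpi (0.95), Apoa4 (0.82) and Treh (0.77) were higher at an unadjusted limma p under 0.05, against 1.81% of all probe sets, and 0 were lower. The leukocyte sum is that of the bright Cd74 and Lyz2 (differences -1.24 and -1.13), while the other 5 tested leukocyte markers had higher means in KO, among them Ptprc (1.38), and the median over the 7 tested was 0.59. The part of all these markers in the enzyme values was not tested. On 1 of its 3 probe sets the targeted gene read 2.42 to 2.75 in KO and 5.84 to 7.61 in WT (limma adjusted p = 0.188), and on the other tested one 5.33 to 6.34 in KO and 2.68 to 6.23 in WT. Xist read 12.29 to 13.35 in KO, against 1.92, 3.72 and 13.17 in WT 1 to WT 3. The mean of 3 Y-linked genes was 2.71 to 2.83 in KO, against 7.85, 8.34 and 2.75 in WT 1 to WT 3, so the groups differ in Y-linked signal and WT 3 is the control without it. The KO mean is therefore also set against WT 3 alone for some genes. WT 3 also had the largest gap between the 3' and 5' Gapdh control probe sets, 1.75 log2 units, against 0.37 to 0.91 on the other arrays.

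The RefSeq promoter windows of the 3 tested genes that differed by at least 1 log2 unit between the groups are shown. Also shown are windows of Gstm5 and Gstm7, picked because they hold an antioxidant response element core and not for their differences. Each runs 5′ to 3′ on the gene's strand from 250 bases before the start to 50 after it (GRCm38.p6). Capitals mark matches on either strand to the antioxidant response element core TGACNNNGC or to a SOX-type core, ACAATG or ACAAAG.
Gsta3 (chr1:21240335-21240634, plus strand): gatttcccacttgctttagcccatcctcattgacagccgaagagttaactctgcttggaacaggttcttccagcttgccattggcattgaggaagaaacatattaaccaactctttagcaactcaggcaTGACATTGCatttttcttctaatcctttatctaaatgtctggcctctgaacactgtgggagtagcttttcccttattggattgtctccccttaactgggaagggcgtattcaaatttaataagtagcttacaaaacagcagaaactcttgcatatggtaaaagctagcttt
Sult1a1 (chr7:126676369-126676668, minus strand): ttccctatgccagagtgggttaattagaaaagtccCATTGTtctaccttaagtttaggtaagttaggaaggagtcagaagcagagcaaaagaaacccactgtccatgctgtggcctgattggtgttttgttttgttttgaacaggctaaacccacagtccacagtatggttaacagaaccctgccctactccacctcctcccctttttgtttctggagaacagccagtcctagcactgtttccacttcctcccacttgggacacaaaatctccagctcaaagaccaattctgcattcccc
Akr1b8 (chr6:34353896-34354195, plus strand): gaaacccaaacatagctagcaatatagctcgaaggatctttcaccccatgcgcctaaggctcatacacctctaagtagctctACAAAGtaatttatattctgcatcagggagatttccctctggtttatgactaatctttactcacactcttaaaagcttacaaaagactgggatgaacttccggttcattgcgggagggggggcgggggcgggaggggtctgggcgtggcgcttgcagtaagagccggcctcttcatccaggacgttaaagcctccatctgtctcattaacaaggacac
Gstm5 (chr3:107895604-107895903, plus strand): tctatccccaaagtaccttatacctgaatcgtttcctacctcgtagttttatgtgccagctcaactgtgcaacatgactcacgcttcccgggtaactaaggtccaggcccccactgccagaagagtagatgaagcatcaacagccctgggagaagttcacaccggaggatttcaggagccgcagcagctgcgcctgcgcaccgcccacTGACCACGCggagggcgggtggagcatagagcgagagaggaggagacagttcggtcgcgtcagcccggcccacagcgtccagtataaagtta
Gstm7 (chr3:107931565-107931864, minus strand): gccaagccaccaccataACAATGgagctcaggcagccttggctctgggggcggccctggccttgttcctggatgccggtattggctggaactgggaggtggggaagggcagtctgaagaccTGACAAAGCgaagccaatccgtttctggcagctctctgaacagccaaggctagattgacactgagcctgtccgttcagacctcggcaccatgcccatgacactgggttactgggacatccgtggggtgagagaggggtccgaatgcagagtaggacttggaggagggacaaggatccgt

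Gsta3 held an antioxidant response element core starting 121 bases before the start and no SOX-type core. Sult1a1 held 1 SOX-type core on the opposite strand, 215 bases before the start, and Akr1b8 held 1 at 168 bases. Of the 7 Gstm genes, with 12 windows between them, Gstm5 and Gstm7 held the antioxidant response element core, at 42 and 129 bases. Gstm2 and Gstm6, which had the largest differences of these genes, held no antioxidant response element core. A window of Gstm6 that is not shown held a SOX-type core, ACAAAG. The match of Gstm7 overlaps an ACAAAG, and an ACAATG lies further upstream. The antioxidant response element core was present in 8.86% of the 79 windows of the 66 member genes with an entry, against 12.4% of all 32851 windows, and a SOX-type core in 27.8% against 28.6%. A match is a run of letters and was not tested as a binding site.

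No conjugation or aldehyde enzyme gene passed the test between KO and WT crypts, and Gsta3 and Akr1b8, lower in KO, and Sult1a1, higher in KO, differed by at least 1 log2 unit. Of the 49 genes tested, 0 were higher and 0 lower at an adjusted p under 0.05 in limma over all 18108 probe sets, where 0.0110% of all probe sets passed. At an unadjusted p under 0.05, 3 of the 49 genes were called, against 3.62% of all probe sets: Gstm6 was higher (1.81% of all probe sets were) and Gsta3 and Aldh7a1 were lower (1.81%). KO lay above WT on average in 25 genes and below it in 24, the median difference was 0.02, and the median over all probe sets tested was 0.03. A difference of at least 1 in size occurred in 3 of the 49 genes, against 2.97% of all probe sets. Of these 3, Gsta3 and Sult1a1 reached the test level only through the group where they were higher. The groups did not overlap in 6 of the 49 genes, or 12.2%, against 9.12% of all probe sets. In 3 of these, Gstm6, Gstz1 and Sult1d1, KO lay above WT (5.09% of all probe sets), and in 3, Gsta3, Aldh7a1 and Aldh18a1, below it (4.03%). With quantile normalization 20 genes lay above and 29 below. In these bulk samples fewer cells of a type and less RNA per cell cannot be told apart.

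The width of the intervals sets what these 6 arrays could show. The 95% limma interval of the difference lay between -1 and 1 in 26 of the 49 genes, and between -0.5 and 0.5 in 4. Among all probe sets these shares were 65.2% and 7.95%. For Gstp1 the interval was -0.36 to 0.39, so that a change of 1 log2 unit lies outside it, while for Akr1c19 it was -2.60 to 2.59.

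**Figure D1:**
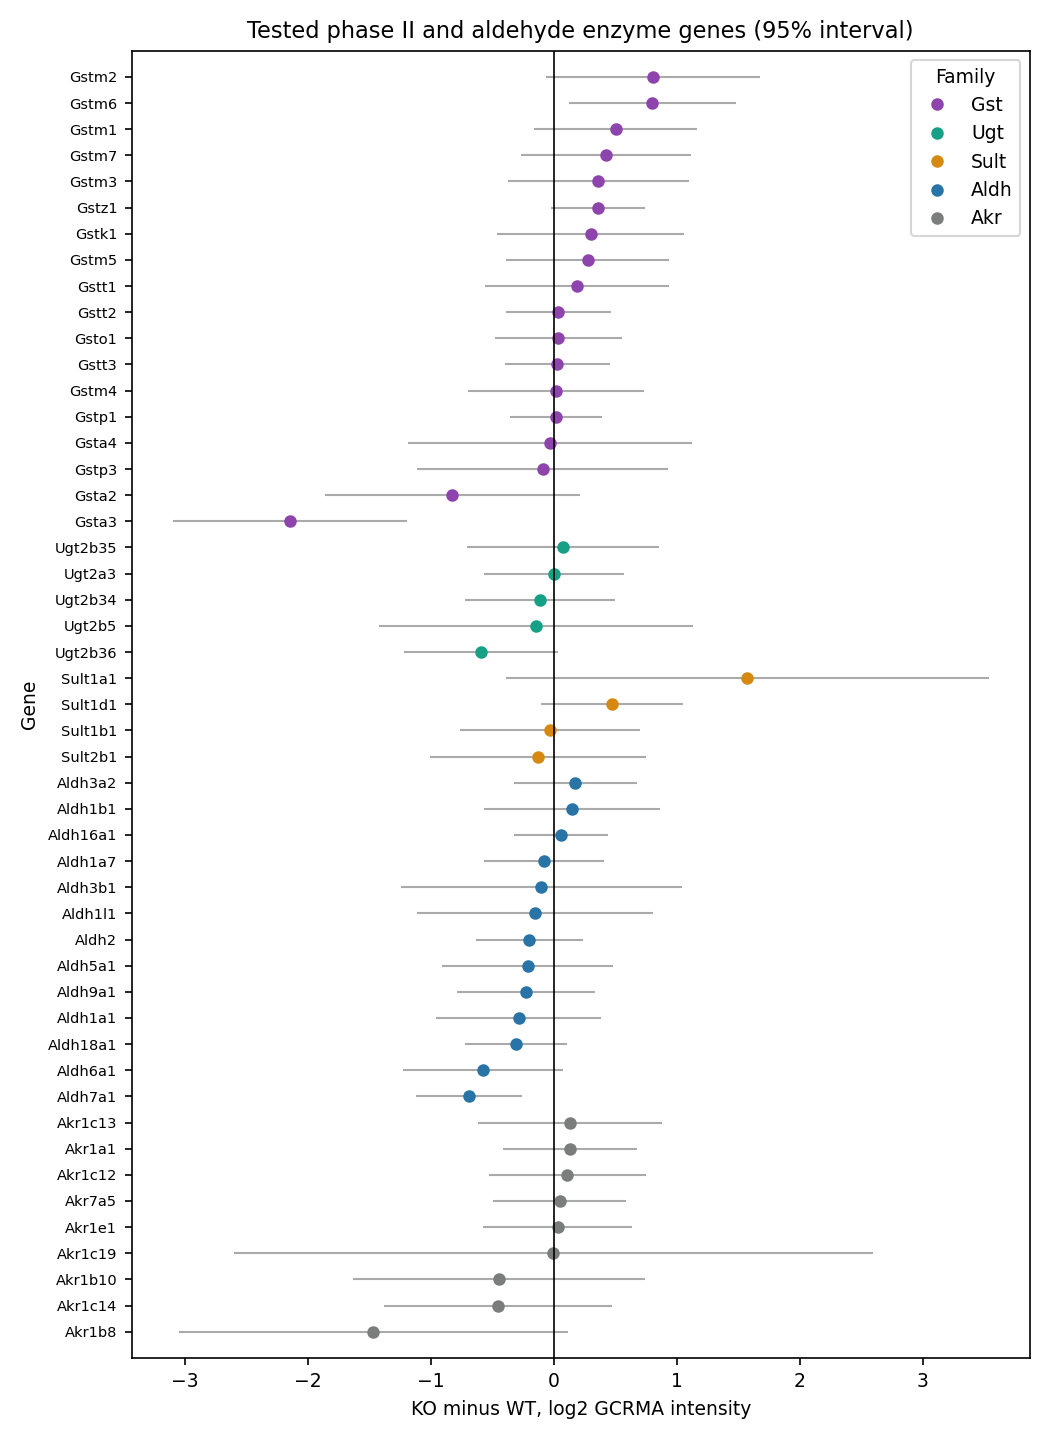
KO minus WT difference in log2 GCRMA intensity of the 49 tested genes, grouped by family; points are differences of means (3 arrays a group) and grey bars are 95% limma intervals. Most intervals cross 0; those of Gsta3, Aldh7a1 and Gstm6 do not, and none of the 49 genes passed at an adjusted p under 0.05.

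Among the alpha-class glutathione S-transferases, Gsta3 had the largest difference of the 49 tested genes. The enzyme it encodes is known in mice for detoxifying the epoxide of aflatoxin. Gsta3 read 4.08, 3.24 and 3.90 in KO 1 to KO 3, against 5.90, 6.57 and 5.19 in WT 1 to WT 3. All KO arrays were lower than all WT arrays, and WT 3 was the lowest of the controls. The difference of -2.15 ± 0.40 (SE), or 4.43-fold lower in KO, had an unadjusted p of 0.00125 and missed the adjusted threshold (limma adjusted p = 0.445). The KO mean lies below the test level of 4, where GCRMA compresses differences, so Gsta3 was tested only because of its WT level and the fold has a floor on the KO side. Set against WT 3 alone, which is what adding a Y-linked term to the fit amounts to, it was -1.45 (limma adjusted p = 0.843). WT 3 is then a lone control, assumed to vary like the other arrays, which supply the spread. With single arrays left out it ranged from -2.49 (without WT 3) to -1.80 (without WT 2). The other Gsta3 probe set read 2.80 to 3.00 on all 6 arrays and was not tested.

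The other alpha-class genes did not separate the groups. Gsta2 read 5.66, 6.15 and 4.57 in KO, against 6.47, 6.56 and 5.83 in WT (difference -0.83 ± 0.43 SE, limma adjusted p = 0.999). KO 2 lay inside the range of the controls, and the difference was -1.17 without KO 2 and -0.38 without KO 3. A brighter probe set that Gsta1, Gsta2 and a related predicted gene share read 12.20, 14.27 and 12.97 in KO, against 13.48, 13.78 and 13.60 in WT, and KO 2 was the highest of all 6 arrays there. Gsta4, whose enzyme acts on the lipid peroxidation product hydroxynonenal, averaged 10.61 ± 0.95 in KO against 10.64 ± 0.37 in WT (SD, n = 3 each). KO 2, at 11.67, was the highest array and KO 3, at 9.85, the lowest. These values part the 3 KO mice among themselves more than KO from WT.

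All 7 mu-class genes, which lie next to each other on chromosome 3, had a higher mean in KO. The median difference over the 7 was 0.43, and they ranged from 0.02 for Gstm4 to 0.81 for Gstm2, against 53.9% of all probe sets with a difference above 0. These genes were chosen as a group after their values were seen, their sequences are alike, and their probe sets may share transcripts, so the 7 are not independent. Gstm6 read 8.87, 8.82 and 7.97 in KO, against 7.60, 7.74 and 7.91 in WT. The groups did not overlap, and KO 3 lay closest to the controls. The difference was 0.80 ± 0.28 (SE; unadjusted p = 0.0270, limma adjusted p = 0.999). Gstm2 read 10.22, 9.27 and 8.93 in KO, against 8.52, 8.47 and 9.01 in WT, and WT 3 overlapped with KO 3 (difference 0.81 ± 0.36 SE, with 0.43 without KO 1 and 1.08 without KO 3). Gstm3 averaged 12.31 ± 0.50 in KO against 11.95 ± 0.32 in WT (SD, n = 3 each).

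The mu-class genes were high on KO 1 and KO 2 and not on KO 3. The median deviation of the 7 genes from their own means was 0.55 on KO 1, 0.36 on KO 2 and -0.27 on KO 3, against -0.48, -0.09 and -0.24 on WT 1 to WT 3, so that KO 3 lay with the controls. Gstm1 was likewise higher on KO 1 and KO 2 than on the other arrays, with 10.93, 10.93 and 10.08 in KO and 10.002, 10.30 and 10.13 in WT. The number of genes above 0 was 5 of 7 without KO 1, 6 of 7 without KO 2, WT 1 or WT 3, 6 of 7 with quantile normalization, and 7 of 7 without KO 3 or WT 2. Without KO 3 the median difference was 0.64, and without WT 1 it was 0.33.

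**Figure D2:**
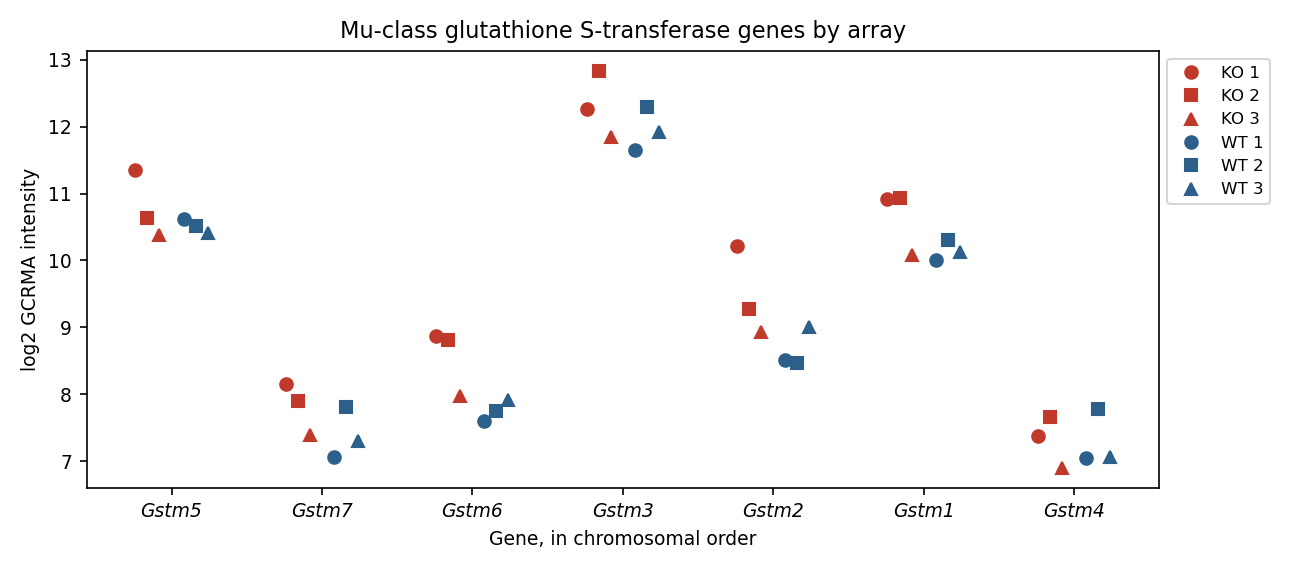
log2 GCRMA intensity of the 7 mu-class genes on each array, in their order along the chromosome (RefSeq, GRCm38.p6); red symbols are KO 1 to KO 3 and blue symbols WT 1 to WT 3. KO 1 and KO 2 lie highest in Gstm1, Gstm2, Gstm6 and Gstm7, while KO 3 lies among the WT arrays or next to them.

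The remaining glutathione S-transferases were close between the groups. Gstz1, the maleylacetoacetate isomerase of tyrosine breakdown, read 9.38, 9.18 and 9.20 in KO, against 8.95, 8.87 and 8.87 in WT. All KO arrays were higher than all WT arrays, with a difference of 0.36 ± 0.16 (SE; unadjusted p = 0.0634, limma adjusted p = 0.999), and of 0.39 against WT 3 alone. Gstp1, the pi-class enzyme, averaged 15.01 ± 0.05 in KO against 14.996 ± 0.07 in WT (SD, n = 3 each). Gsto1, an omega-class enzyme, averaged 14.31 ± 0.05 in KO against 14.27 ± 0.33 in WT (SD, n = 3 each). The theta-class genes Gstt1, Gstt2 and Gstt3 differed by 0.19, 0.04 and 0.03. On its other tested probe set Gsto1 read 13.11, 13.11 and 13.30 in KO, against 12.67, 13.11 and 13.01 in WT (difference 0.25), with KO 1, KO 2 and WT 2 level to 2 decimals. Over the whole family 14 of 18 tested genes lay above 0 (53.9% of all probe sets did), with a median of 0.11. It was 11 of 18 with quantile normalization, 10 of 18 (median 0.02) without KO 1, 11 of 18 (0.05) without WT 1, 13 of 18 (0.06) without KO 2, 11 of 18 (0.18) without WT 3, 15 of 18 (0.21) without WT 2 and 16 of 18 (0.36) without KO 3.

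Among UDP-glucuronosyltransferases 5 of 11 genes were tested, 1 lay above 0 (53.9% of all probe sets did) and the median difference was -0.12. These 5, Ugt2b34, Ugt2b35, Ugt2b36, Ugt2b5 and Ugt2a3, belong to 1 gene cluster on chromosome 5. Ugt2b36 read 8.04, 8.003 and 7.72 in KO, against 8.03, 8.64 and 8.88 in WT. WT 1 overlapped with the mutants, and the difference was -0.59 ± 0.26 (SE; unadjusted p = 0.0599, limma adjusted p = 0.999), or -0.96 against WT 3 alone. Ugt2b34 averaged 13.29 ± 0.26 in KO against 13.40 ± 0.38 in WT, and its other probe set pointed the other way (-0.12 and 0.20). Ugt2a3 averaged 11.34 ± 0.32 in KO against 11.34 ± 0.26 in WT, and Ugt2b35 10.51 ± 0.29 in KO against 10.43 ± 0.57 in WT (SD, n = 3 each). Ugt2b5 read 8.38, 9.85 and 8.90 in KO, against 8.28, 9.30 and 9.98 in WT, a spread within each group that exceeds its difference of -0.14. The Ugt1a genes, which include those of the bilirubin-conjugating enzyme, share exons and had 3 probe sets for 8 of them together. Those 3 differed by 0.04, -0.24 and -0.21 and none passed (limma adjusted p = 0.999 each).

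Of 12 sulfotransferase genes 4 were tested, and Sult1a1 had the largest positive difference of the 49 tested genes. Sult1a1, the phenol sulfotransferase, read 6.73, 4.22 and 4.67 in KO, against 2.86, 3.03 and 5.005 in WT. WT 3 overlapped with KO 2 and KO 3, and WT 1 and WT 2, the arrays with Y-linked signal, were the lowest. The difference was 1.57 ± 0.82 (SE; unadjusted p = 0.0992, limma adjusted p = 0.999), and against WT 3 alone it was 0.20. The WT mean lies below 4, with WT 1 and WT 2 near the floor, so Sult1a1 was tested only because of its KO level and its difference has a floor on the WT side. It was 0.81 without KO 1 and 2.26 without WT 3.

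Sult1d1 and Sult1b1 lie in a cluster on chromosome 5. Sult1d1, which in mice sulfates catechols such as dopamine, read 13.26, 13.22 and 13.45 in KO, against 12.39, 12.98 and 13.15 in WT. The groups did not overlap, with KO 2 next to WT 3, and the difference was 0.47 ± 0.24 (SE; unadjusted p = 0.0948, limma adjusted p = 0.999), or 0.16 against WT 3 alone. A second, dimmer probe set differed by 0.34 with overlapping groups. Sult1b1, a sulfotransferase of thyroid hormones, averaged 12.58 ± 0.32 in KO against 12.62 ± 0.49 in WT. Sult2b1, the cholesterol sulfotransferase, lies elsewhere in the genome and averaged 9.94 ± 0.60 in KO against 10.07 ± 0.43 in WT (SD, n = 3 each). KO and WT arrays overlapped for both genes.

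Aldehyde dehydrogenases lay mostly below 0, in 10 of 13 tested genes of 20, with a median difference of -0.20, and 3 lay above 0, against 53.9% of all probe sets. That median was -0.07 (8 of 12 below 0) with averaged probe sets, -0.12 (9 of 13) without KO 1 and -0.13 (8 of 13) without WT 2. Aldh7a1, an enzyme of lysine breakdown, read 6.17, 6.39 and 6.54 in KO, against 6.94, 7.06 and 7.16 in WT. The highest KO array, KO 3, was lower than the lowest WT array, WT 1. The difference of -0.69 ± 0.18 (SE), or 1.61-fold lower in KO, had an unadjusted p of 0.00716 and missed the adjusted threshold (limma adjusted p = 0.999). It ranged from -0.78 to -0.59 with single arrays left out, and was -0.79 against WT 3 alone. The other 2 Aldh7a1 probe sets lay between 2.12 and 2.56 on all arrays.

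Aldh6a1 and Aldh18a1 also had lower means in KO without passing. Aldh6a1, the methylmalonate semialdehyde dehydrogenase of valine breakdown, read 8.67, 8.39 and 8.71 in KO, against 8.68, 9.20 and 9.62 in WT. WT 1 lay inside the KO range, and the difference was -0.57 ± 0.27 (SE; limma adjusted p = 0.999), or -1.03 against WT 3 alone (adjusted p = 0.830). Aldh18a1, which makes the precursor of proline, read 12.83, 13.13 and 12.84 in KO, against 13.29, 13.26 and 13.17 in WT. Its groups did not overlap, and the difference was -0.31 ± 0.17 (SE), while its 4 other probe sets differed by -0.24 to -0.02. Aldh2, the acetaldehyde-oxidising enzyme, averaged 10.31 ± 0.15 in KO against 10.51 ± 0.17 in WT (SD, n = 3 each; difference -0.20), and 2 dimmer probe sets of it differed by 0.04 and 0.21. Aldh1b1 averaged 13.51 ± 0.22 in KO against 13.37 ± 0.53 in WT (SD, n = 3 each), where WT 2 (12.81) was low and WT 3 (13.86) high. Aldh9a1, an enzyme of carnitine synthesis, averaged 13.87 ± 0.18 in KO against 14.10 ± 0.36 in WT (SD, n = 3 each), and its probe sets disagreed in sign (-0.23 and 0.11).

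Aldh1a1, which makes retinoic acid from retinal, averaged 12.61 ± 0.33 in KO against 12.90 ± 0.40 in WT (SD, n = 3 each). Its difference of -0.29 ± 0.28 (SE) lay within the spread of the mice. The related Aldh1a2 and Aldh1a3 were under the test level on all arrays. Aldh1l2, a mitochondrial enzyme of folate metabolism, was under the level as a mean and was not tested, but its arrays parted. It read 2.81, 2.80 and 2.79 in KO, against 3.99, 4.83 and 3.90 in WT. The 3 KO values are those of a probe set at the GCRMA floor, so the difference of -1.44 has a floor on the KO side.

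Of 15 aldo-keto reductase genes 9 were tested, 5 lay above 0 and the median difference was 0.03. Akr1b8, an aldose reductase-like enzyme, had the largest difference of the family. It read 6.78, 5.11 and 6.33 in KO, against 7.29, 8.78 and 6.55 in WT. KO 1 overlapped with WT 3, KO 2 was the lowest and WT 2 the highest. The difference was -1.47 ± 0.66 (SE; unadjusted p = 0.0639, limma adjusted p = 0.999), or 2.77-fold lower in KO, with -0.85 without WT 2, -1.97 without WT 3 and -0.48 against WT 3 alone. Its neighbour Akr1b10 read 5.90, 6.24 and 5.92 in KO, against 5.99, 7.65 and 5.76 in WT. WT 2 was again the highest array, and without it the difference of -0.45 became 0.14.

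The Akr1c genes of chromosome 13 varied between mice of the same group. Akr1c14, a hydroxysteroid dehydrogenase, read 9.49, 10.38 and 8.87 in KO, against 9.76, 10.13 and 10.21 in WT (difference -0.45 ± 0.39 SE). Akr1c13 averaged 11.95 ± 0.52 in KO against 11.82 ± 0.32 in WT, and a probe set shared with Akr1c12 averaged 13.15 ± 0.48 in KO against 12.94 ± 0.20 in WT (SD, n = 3 each). KO 3 was the lowest of the 6 arrays on Akr1c12, Akr1c13, Akr1c14 and the shared probe set. Akr1a1, a general aldehyde reductase, averaged 15.21 ± 0.13 in KO against 15.08 ± 0.35 in WT, and Akr7a5, a reductase of aflatoxin aldehyde, 12.17 ± 0.36 in KO against 12.13 ± 0.12 in WT (SD, n = 3 each). On its 2 other tested probe sets Akr7a5 differed by 0.24 and -0.45, against 0.05.

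**Figure D3:**
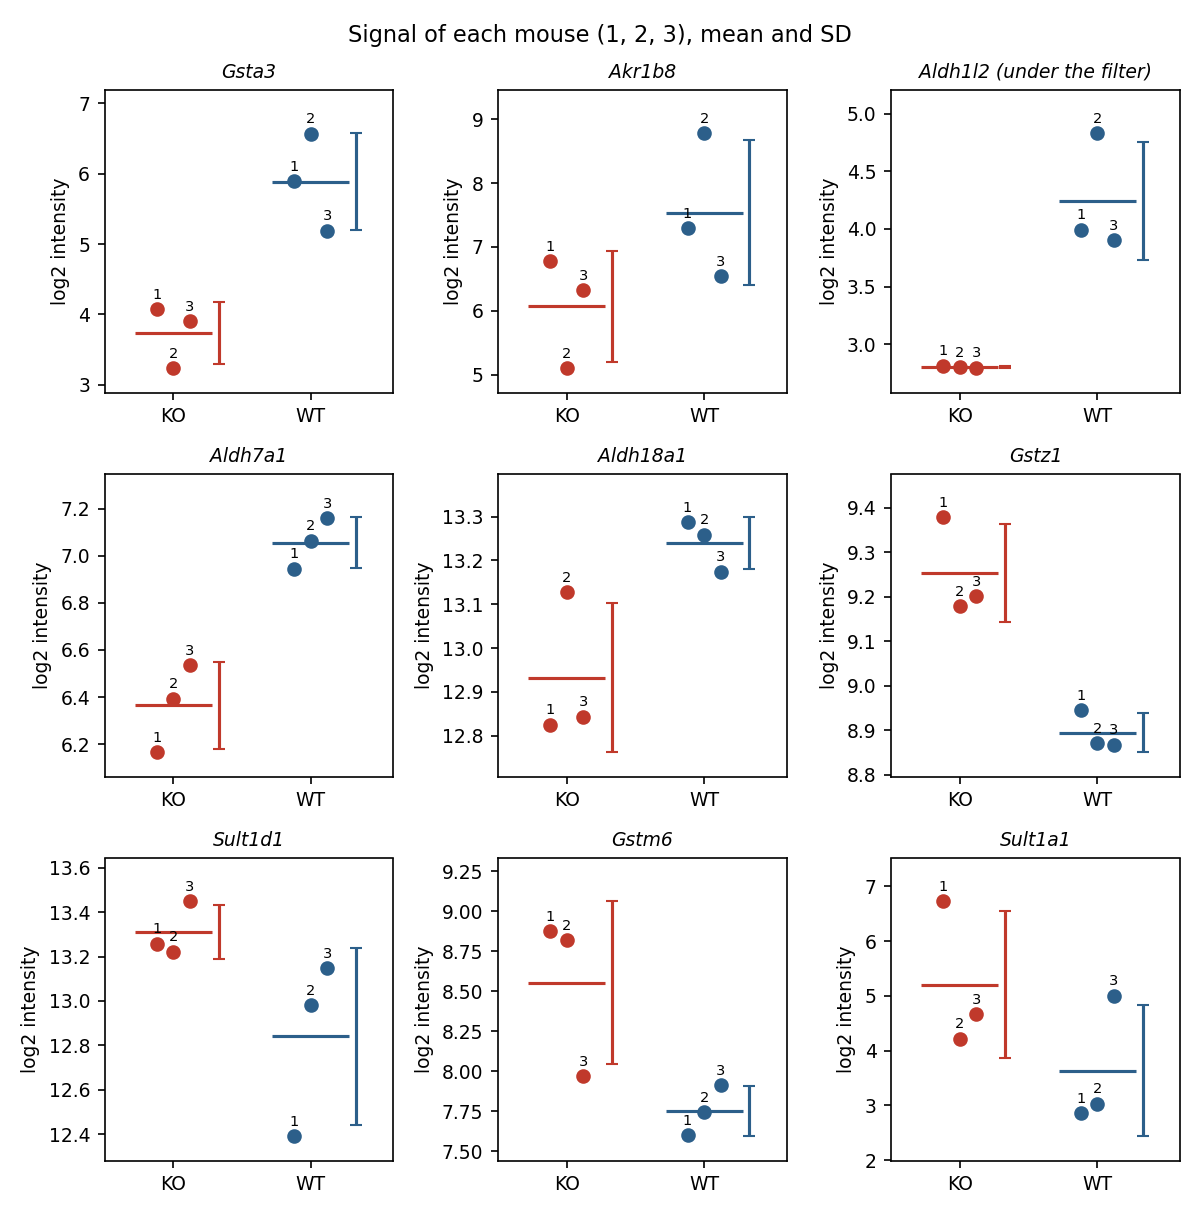
log2 GCRMA intensity of each mouse (points numbered 1 to 3), group mean (line) and SD (bar, n = 3) for the tested genes whose groups did not overlap or differed by at least 1, and for Aldh1l2; the axes do not start at 0. KO lies below WT on every array in Gsta3, Aldh1l2, Aldh7a1 and Aldh18a1 and above it in Gstz1, Sult1d1 and Gstm6, while Akr1b8 and Sult1a1 overlap.

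The 29 genes under the test level were near the floor. Of these, 28 read under 4 on all 6 arrays, the exception being Aldh1l2, and apart from Aldh1l2 their values lay between 2.13 and 3.84 and the groups differed by at most 0.21 in size. They include Ugt8a, Ugt2b1, Sult1e1, the estrogen sulfotransferase, Sult2a2, Aldh3a1, Akr1c6, Akr1c18 and Akr1d1, several of which are known mainly from other tissues. A probe set at the floor does not show that a gene is silent.

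Single arrays set much of the spread. WT 1 was the lowest of the 6 arrays in 16 of the 49 genes and the highest in 2, WT 2 the highest in 14, and KO 1 the highest in 13. Family medians of the deviation from each gene's mean were 0.24, 0.15 and -0.24 for Gst genes on KO 1 to KO 3, against -0.19, 0.10 and -0.14 on WT 1 to WT 3, and 0.13, 0.02 and -0.47 for Akr genes in KO against -0.11, 0.12 and 0.07 in WT. WT 1 also had the lowest median deviation of villus enterocyte markers (-0.64, with -0.05 to 0.26 in KO and 0.04 to 0.11 on the other WT arrays). Its part in the enzyme values was not tested. The pooled within-group SD had a median of 0.38 over the 49 genes and 0.33 over all probe sets.

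**Figure D4:**
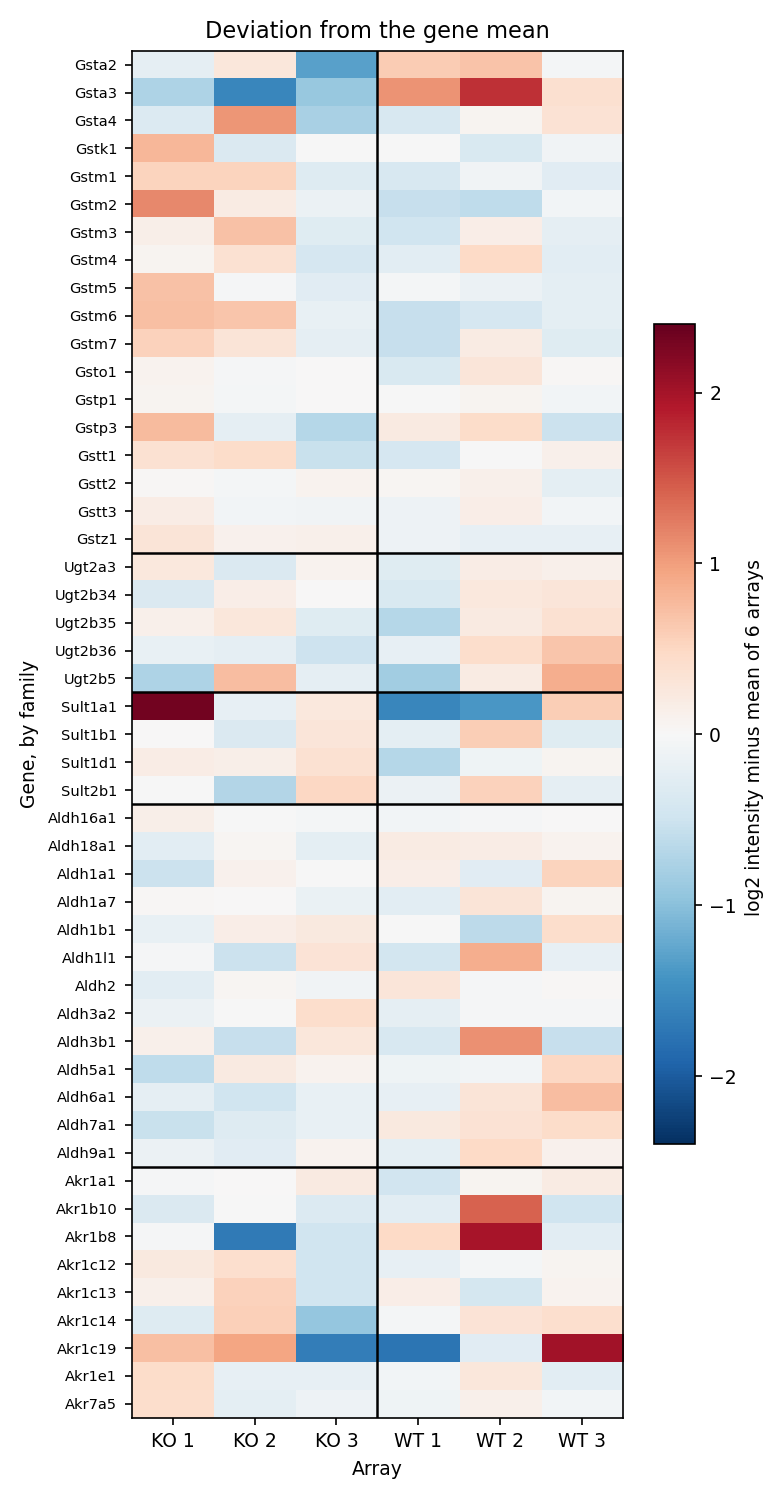
Deviation of each tested gene from its own mean over the 6 arrays, in log2 units, with KO arrays left and WT arrays right of the vertical line and families divided by horizontal lines. Gsta3 is blue on all KO arrays and red on all WT arrays, and most other rows mix colours within a group, as in Akr1c19.

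Genes around conjugation were read from lists of sensors, glutathione supply, cofactor supply, other conjugating enzymes, efflux pumps and retinoid enzymes, chosen with earlier results known, and 0 of their tested genes passed in either direction. Of 11 tested sensor genes 6 lay above 0, as did 53.9% of all probe sets, with a median of 0.03. Nfe2l2, which encodes Nrf2, differed by -0.18 and Ahr, the aryl hydrocarbon receptor gene, by -0.11. Rxra and Ppara, the genes of smallest p, differed by 0.27 and 0.45. Of 9 tested genes of glutathione synthesis and known Nrf2 targets 3 lay above 0, with a median of -0.03. Gclc and Gclm, the subunits of the enzyme that starts glutathione synthesis, differed by 0.04 each, the malic enzyme gene Me1 by 1.21 and the glutathione peroxidase gene Gpx2 by -0.51, with overlapping groups. Me1 read 8.45, 11.02 and 10.68 in KO, against 9.26, 7.57 and 9.67 in WT.

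For the supply of activated sugar and sulfate, 3 of 8 genes lay above 0, with a median of -0.21. Ugdh, which makes UDP-glucuronic acid, differed by -0.29 and Slc35d1, a carrier of it into the endoplasmic reticulum, by -0.35. Among other conjugating and carbonyl-reducing enzymes 9 of 12 lay above 0 (53.9% of all probe sets did), with a median of 0.21. The epoxide hydrolase gene Ephx2 read 12.56, 12.32 and 12.09 in KO, against 10.82, 12.03 and 11.60 in WT, and Cbr3, a carbonyl reductase gene, 4.63, 5.73 and 4.56 in KO, against 4.41, 3.74 and 3.82 in WT. For both genes all KO arrays were higher than all WT arrays (differences 0.84 and 0.98, limma adjusted p = 0.999 each), as in 5.09% of all probe sets. The WT mean of Cbr3, 3.99, lies below the test level, so Cbr3 was tested only because of its KO level. Mgst1 of the same list went the other way, with all KO arrays lower than all WT arrays (difference -0.38), as in 4.03% of all probe sets.

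Some efflux pumps export conjugates. Of 7 tested efflux pump genes 6 lay below 0 and 1 above it, where 53.9% of all probe sets lay above 0. The median of the 7 was -0.24. Abcc5 read 7.40, 5.96 and 6.58 in KO, against 8.06, 8.52 and 7.94 in WT. All KO arrays were lower than all WT arrays, as in 4.03% of all probe sets. The difference of -1.53 ± 0.38 (SE) missed the adjusted threshold (limma adjusted p = 0.953). Abcc4 read 3.87, 3.88 and 3.79 in KO, against 4.57, 4.25 and 4.44 in WT, near the test level (difference -0.57). Its groups did not overlap either, so 2 of the 7 genes had all KO arrays below all WT arrays. The KO mean of Abcc4, 3.85, lies below the test level, so Abcc4 was tested only because of its WT level. Of 6 tested retinoid genes 3 lay above 0, with a median of 0.06. Rdh10 and Dhrs3, the genes of smallest p, differed by -0.17 and 0.35. Their enzymes form retinal from retinol and return it to retinol.

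**Figure D5:**
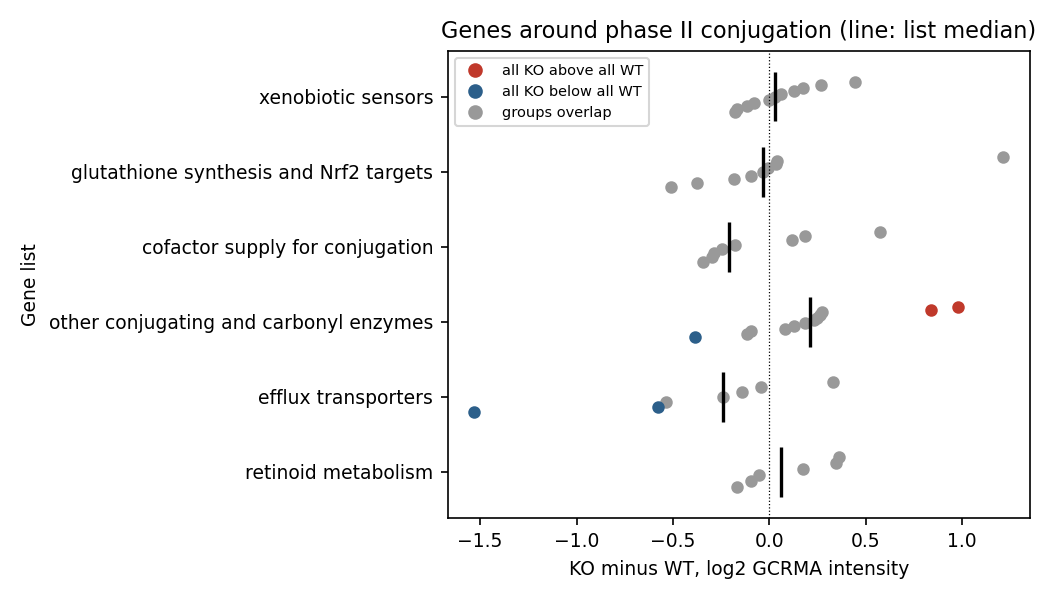
KO minus WT difference in log2 GCRMA intensity of each tested gene in 6 lists around conjugation, with the list median as a line and colour for whether the KO and WT arrays overlap. Abcc5 (-1.53) lies farthest left and Me1 (1.21) farthest right, and the list medians lie between -0.24 and 0.21.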

How the data were processed

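Jejunal crypt RNA of 6 mice was measured on 1 array each. The authors deposited log2 intensities of 45101 probe sets, made with GCRMA and followed by limma, per the submitters' processing notes, which name no version here. The GCRMA method pulls dim probe sets to a floor and compresses differences there. Leaving out 64 control probe sets, those averaging at least 4 (18108) were tested for KO minus WT in limma 3.58.1 under R 4.3.3 (lmFit, eBayes, no covariates, two-sided, Benjamini-Hochberg over all of them, threshold 0.05). The p-values describe the spread between these mice, and 3 arrays a group limit the precision.

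Gene names came from the platform annotation where a probe set had 1 symbol (34945 probe sets; 932 had several and 9160 none), and all 78 members matched RefSeq symbols (GRCm38.p6). Named were, in each family, the 4 tested genes of smallest p, the 3 brightest and any that differed by at least 1, and in each pathway list the 2 of smallest p; other genes were chosen after their values were seen. Members and lists were chosen with earlier results of these data known. The fit was tested on simulated data. Alternatives were a replicate block, other filters, quantile normalization, median centring, averaging the probe sets of each gene, a trended and robust prior, and each array left out; a Y-linked term was chosen after seeing the data. The table held 0 columns of other samples.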

Additional observations from a re-analysis of the deposited data

How the results depend on the processing

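The count of genes past the adjusted threshold was 0 of those tested in limma under every alternative, with 2 to 6 at an unadjusted p under 0.05, and the smallest adjusted p was 0.309 (Gsta3 without WT 3). The median difference of 0.02 was 0.02 with the replicate block, and from -0.11 (without WT 1) to 0.11 (without WT 2) with single arrays left out. Same-numbered arrays did not deviate together (correlations -0.05, -0.29 and 0.03), which cannot show whether the numbers pair littermates. With the block, 0 probe sets of the whole array passed, against 2 without it. That count was 4 with quantile normalization, 1 with the filter at 6, 0 with no filter and 0 to 16 (without WT 3) with single arrays left out. Of the 49 genes, 5 turned sign with quantile normalization, 2 with median centring, 13 with the Y-linked term and 27 with at least 1 of the single arrays left out. With averaged probe sets 47 genes were tested and 3 turned sign. Gsta3 and Aldh7a1, whose other probe sets lie near the floor, then averaged under the test level and were not tested. At an unadjusted limma p under 0.05, 2 genes were higher and 0 lower in that setting. The turned genes that the naming rule picked follow. Signs turned with quantile normalization for Gstp1 (-0.0046) and Akr7a5 (-0.0019), with median centring for Ugt2a3 (0.0064), and with averaged probe sets for Ugt2b34 (0.045), Aldh2 (0.0066) and Akr7a5 (-0.053). With the Y-linked term they turned for Gsto1 (-0.017), Ugt2b35 (-0.33), Sult2b1 (0.16), Sult1b1 (0.27), Aldh1b1 (-0.34), Akr1b10 (0.26), Akr1a1 (-0.13) and Akr1c13 (-0.015). With single arrays left out, differences crossed 0 in 13 named genes: Gstp1 (-0.016 to 0.053), Gsto1 (-0.14 to 0.19), Ugt2b34 (-0.33 to 0.026), Ugt2b5 (-0.60 to 0.25), Ugt2b35 (-0.25 to 0.28), Ugt2a3 (-0.15 to 0.17), Sult2b1 (-0.41 to 0.19), Sult1b1 (-0.19 to 0.25), Aldh1b1 (-0.13 to 0.39), Akr1b10 (-0.80 to 0.14), Akr1a1 (-0.068 to 0.26), Akr7a5 (-0.16 to 0.18) and Akr1c13 (-0.11 to 0.40). The cause was not tested.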

Other observations

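Akr1c19, an aldo-keto reductase gene of the chromosome 13 cluster, varied most within the groups among the 49 tested genes and was chosen after its values were seen. It read 9.87, 10.10 and 7.50 in KO 1 to KO 3, against 7.41, 8.90 and 11.18 in WT 1 to WT 3. Its pooled within-group SD was 1.69, ahead of Sult1a1 (1.27), while its group means were 9.159 in KO and 9.162 in WT. Set against WT 3 alone, a single array, the KO mean of Akr1c19 differed by -2.03, and with WT 3 left out it differed by 1.01.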
